A study of Homo sapiens with 2 samples.

Results

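TP73 enrichment was examined at 7 gene loci, those of the NF-kB subunits NFKB1, NFKB2, RELA, REL and RELB and of the transcription factors IRF4 and BATF3. A peak belonged to a locus when its summit lay inside the hg19 gene span or within 20 kb of it. By this rule 16 of the 18908 peaks of the list were members, and they fell at 5 of the 7 loci. The study consists of 1 ChIP library, made with an antibody against TP73, and 1 input library of whole cell extract, both from TL-Om1, an established human line of adult T-cell leukaemia. Formaldehyde fixation lasted 10 min for both libraries, and the labels list no other treatment. With 1 library per group in 1 cell line, no value below has a replicate error, no test across samples was possible, and the ranges and intervals given cover counting error or the spread between peaks. Peak names carry the text IgG although the labelled background library is whole cell extract, so "control" below means whichever library the peak caller was given.

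NF-kB is a family of dimeric transcription factors that share the Rel homology domain. RELA and REL carry an activation domain and pair with the p50 product of NFKB1 in the canonical branch, and RELB pairs with p52, the product of NFKB2, in the alternative branch. NFKB1 and NFKB2 are made as precursors, p105 and p100, whose own ankyrin repeats hold the dimers in the cytoplasm until they are processed. Persistent NF-kB activity is a known feature of adult T-cell leukaemia. IRF4, an interferon regulatory factor of lymphocytes, binds DNA jointly with AP-1 factors of the BATF group, to which BATF3 belongs, and both genes are known for their high expression in this leukaemia. TP73 is a p53-family factor that recognises the same kind of DNA element as p53.

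The starts of these genes are shown first because every locus with a peak had a summit close to its start. Promoter sequences came from RefSeq on the GRCh38.p14 build and covered 250 bases before to 50 after each annotated start; 9 such windows matched 5 of the 7 genes, and for RELB and BATF3 none matched. The peaks are on hg19 and gene spans were given to the nearest 1 kb, so where a summit lies within the printed bases was not resolved. The 250 bases before the 5′-most start are printed for NFKB1 and RELA, which had a peak near the start, and for REL, which had none. NFKB1 and RELA each have 2 starts in the table, and which of them a peak lies nearer to was not resolved. Capitals mark matches of the kappaB consensus, the element that NF-kB dimers bind.
NFKB1 (chr4:102501109-102501358, plus strand): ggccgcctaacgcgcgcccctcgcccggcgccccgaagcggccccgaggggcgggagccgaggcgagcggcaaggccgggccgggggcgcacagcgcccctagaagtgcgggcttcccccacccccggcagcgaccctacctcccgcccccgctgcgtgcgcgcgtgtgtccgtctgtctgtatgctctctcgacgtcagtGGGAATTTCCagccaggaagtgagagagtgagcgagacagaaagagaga
RELA (chr11:65663858-65664107, minus strand): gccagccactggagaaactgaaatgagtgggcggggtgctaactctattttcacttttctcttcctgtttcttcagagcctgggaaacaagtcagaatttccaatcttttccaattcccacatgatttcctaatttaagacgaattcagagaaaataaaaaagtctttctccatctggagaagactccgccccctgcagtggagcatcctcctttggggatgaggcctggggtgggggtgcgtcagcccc
REL (chr2:60881324-60881573, plus strand): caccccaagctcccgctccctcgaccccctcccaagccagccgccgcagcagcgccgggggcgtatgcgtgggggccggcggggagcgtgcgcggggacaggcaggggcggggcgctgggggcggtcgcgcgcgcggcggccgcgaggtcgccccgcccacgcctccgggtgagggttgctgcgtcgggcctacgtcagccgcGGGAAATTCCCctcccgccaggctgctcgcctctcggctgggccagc
For NFKB2, whose table entry has 3 starts, numbered in the direction of transcription, the 30 bases around 3 of its matches are printed.
NFKB2, start 2 (chr10:102394461-102394490, plus strand): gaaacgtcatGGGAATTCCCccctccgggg
NFKB2, start 2 (chr10:102394490-102394519, plus strand): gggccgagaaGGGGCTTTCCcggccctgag
NFKB2, start 3 (chr10:102395674-102395703, plus strand): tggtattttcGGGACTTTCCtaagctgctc

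The kappaB consensus, 10 bases long and searched on both strands, matched 4 of the 9 windows, at 3 genes. Over all 35116 promoter windows of the table the share was 5.91%. By gene, 7.09% of 27305 genes had a match. NFKB2 supplied 3 of the 9 windows, and windows of the same gene are not independent. In NFKB1 the match began 49 bases before the start. In REL it began 47 bases before the start, where matches on both strands overlapped and the capitals run over them together. NFKB2 had 2 separate places before start 2, at 107 and 78 bases, and 2 before start 3, at 176 and 21 bases. The palindromic place at 107 bases also overlapped a further match shifted by 1 base. No match was found in the windows of RELA or IRF4. The consensus of the p53 half-site, also 10 bases long and its own reverse complement, matched 0 of the 9 windows, against 6.63% of all windows, which says only that these letters are not in these stretches. GC content was 79.0% in the REL window and 74.0% in that of IRF4. It was 71.3% and 70.0% at the 2 NFKB1 starts and between 60.7% and 68.7% at the 3 NFKB2 starts. The 2 RELA starts differed, with 51.3% at the first and 77.0% at the other, against a median of 58.7% over all windows (quartiles 47.0% and 68.0%).

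All 5 loci with a peak had a summit within 2 kb of the gene start. These were 6 peaks, and each lay inside the span, between 0.513 and 1.335 kb past the start as the rule gives it. As spans were given to 1 kb, a distance below 1 kb does not settle on which side of the true start a summit lies. Of the 16 members, 9 had their summit inside a gene span as given and 7 lay beyond the 3′ end. None lay in the 140 kb searched before the starts as given. How often other genes of the genome have a peak at their start was not analysed here, since no hg19 annotation was used. The map of summits around the genes shows this arrangement.

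**Figure D1:**
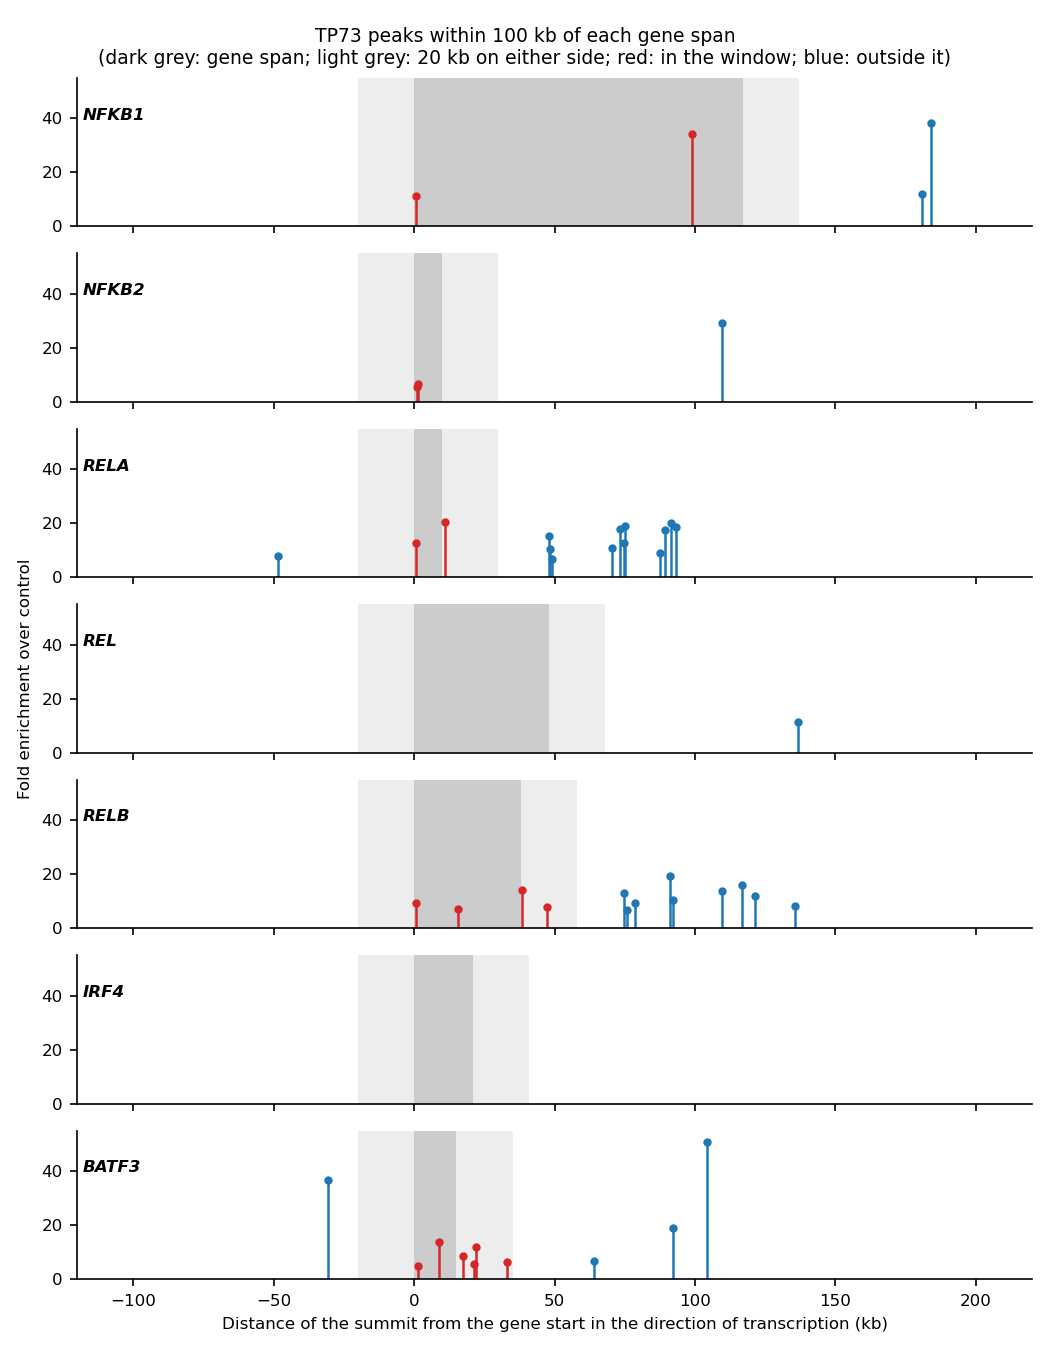
TP73 peaks within 100 kb of each gene span, placed by the distance of the summit from the gene start in the direction of transcription (kb, horizontal axis) and drawn to the height of the fold enrichment over the control (vertical axis). Dark grey is the gene span, light grey the 20 kb on either side; red peaks are the 16 members and blue peaks lie outside the windows. REL and IRF4 have none in the window, and at the other 5 loci a red peak stands near 0 kb.

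NFKB1, on chromosome 4 from 103.422 to 103.539 Mb, encodes p105 and p50. It held 2 peaks, and they differed in strength. The peak at the start, chr4:103422391-103422675, had a fold enrichment of 11.2 over the control and a −log10 q-value of 46.4, with 68 ChIP reads over the summit. The peak inside the gene, chr4:103520676-103521009, lay 98.8 kb past the start. Its fold was 34.3 with a −log10 q-value of 147.5 and 123 reads, the highest of the 16 on all 3 measures, and 90.4% of the whole list had a fold as low or lower. By reads the intragenic summit carried 1.81 times as many as the start, and by fold 3.06 times. The control background differed between them, with 5 control reads per fragment length at the start and 2.53 at the intragenic peak. Its part in the difference of folds was not tested. The fragment length, 142 bp, was taken as the width of the shortest peak in the list.

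NFKB2, the gene of p100 and p52, lies on chromosome 10 from 104.153 to 104.163 Mb and had the lowest median fold, 6.01, of the 5 loci with a peak. Its peaks, chr10:104153883-104154031 and chr10:104154145-104154421, had folds of 5.47 and 6.55 and −log10 q-values of 10.6 and 14.2. They carried 27 and 30 ChIP reads. The summits were 361 bp apart, 0.901 and 1.262 kb past the start, and 113 bp separated the peaks, less than the fragment length. Merging peaks closer than 500 bp left 1 peak here, and neither peak reached a fold of 10 or a −log10 q-value of 20. Of the whole list, 13.7% of peaks had as few reads as the first or fewer, and 22.4% had as few as the second or fewer.

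RELA, on the minus strand of chromosome 11 from 65.421 to 65.431 Mb, encodes p65, the main activating subunit. The peak at its start, chr11:65430293-65430762, had a fold of 12.9, a −log10 q-value of 34.1 and 44 reads. The other, chr11:65419975-65420564, lay 0.910 kb beyond the 3′ end, on the side of the next gene SIPA1, and was the widest member at 590 bp. It had a fold of 20.6, a −log10 q-value of 70.8 and 71 reads. Both folds were taken over the genome-wide background. Like NFKB1, RELA thus had its stronger peak away from the start.

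RELB, on chromosome 19 from 45.504 to 45.542 Mb, encodes the subunit of the alternative branch and held 4 peaks. The start carried chr19:45504538-45504727 with a fold of 9.17 and 31 reads. A weaker peak inside the gene, chr19:45519699-45519867, had a fold of 7.17 and 24 reads, the fewest of any member. The strongest of the 4, chr19:45542277-45542531, lay 0.413 kb beyond the 3′ end with a fold of 14.0, a −log10 q-value of 39.2 and 48 reads. A further peak 9.21 kb beyond the end, chr19:45551095-45551307, had a fold of 7.81 and 31 reads. The next protein-coding gene on that side is CLASRP; which gene a summit acts on was not measured. As at NFKB1 and RELA, the start did not carry the highest fold of the locus.

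REL, on chromosome 2 from 61.108 to 61.156 Mb, encodes c-Rel, the lymphoid subunit, and had no peak. The nearest summits lay 380.8 kb before its start (chr2:60727083-60727439, fold 31.2, 108 reads) and 88.8 kb beyond its end (chr2:61244665-61244936, fold 11.5, 39 reads). REL therefore sat in an interval of 517.6 kb without a summit. Of the 18883 intervals between neighbouring summits 6.91% were at least that long, and together they made up 49.5% of the length between summits.

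IRF4, near the end of chromosome 6 from 0.391 to 0.412 Mb, had no peak either. The nearest summits lay 233.6 kb before the start (chr6:157303-157553, fold 16.3, 56 reads) and 171.3 kb beyond the end (chr6:583151-583453, fold 17.8, 90 reads). The interval of 425.9 kb between them was matched or exceeded by 8.82% of intervals, which hold 55.1% of the length. The density of chromosome 6 would give 0.28 peaks in a window as long as that of IRF4, and that of chromosome 2 would give 0.53 in the window of REL. A count of 0 is therefore within counting error of either density. Sites below the limit of calling, which rested on 18 reads for the weakest peaks of the list, were not analysed here.

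BATF3, on the minus strand of chromosome 1 from 212.859 to 212.874 Mb, encodes the AP-1 partner of IRF4. It held 6 peaks, the most of the 7 loci with the 20 kb window, a lead that depended on the settings. The peak at the start, chr1:212872461-212872763, had the lowest fold of all 16 members, 5.002, with 40 reads over 7 control reads per fragment length. Its fold and p-value had 2 solutions, of which the one closest to a whole number of reads is given. The other peak inside the gene, chr1:212864889-212865383, lay 8.98 kb past the start and was the strongest of the locus, with a fold of 13.8, a −log10 q-value of 45.3 and 57 reads.

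The remaining 4 BATF3 peaks followed the 3′ end at 2.415, 6.343, 6.822 and 18.1 kb. The nearest, chr1:212856498-212856713, had a fold of 8.58 and 39 reads. The next pair, chr1:212852541-212852757 and chr1:212851881-212852315, had summits 479 bp apart, folds of 5.49 and 11.7, and 44 and 59 reads. The last, chr1:212840803-212840988, had a fold of 6.51 and 39 reads and was the member closest to the edge of a window, 1.90 kb inside it. Just outside the windows, the closest peak was also at BATF3, 30.8 kb before its start, chr1:212904554-212904952, with a fold of 36.9 and 171 reads, more than any member. On the other side the next peak, chr1:212810011-212810245, lay 48.9 kb beyond the end with a fold of 6.64 and 31 reads.

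The 7 windows together spanned 539 kb and held 29.7 peaks per Mb (exact 95% Poisson interval 17.0 to 48.2), against 6.65 per Mb over the autosomes. The spread among the loci was wide. BATF3 had 109.1 peaks per Mb (40.03 to 237.4), RELB 51.3 (14.0 to 131.3), NFKB2 and RELA 40.0 each (4.84 to 144.5), and NFKB1 12.7 (1.54 to 46.0). For REL and IRF4 the upper bounds were 41.9 and 60.5. Neighbouring peaks are not independent, and the intervals take no account of that. The windows are placed on genes, whereas the autosomes include long stretches without genes. Windows of other genes were not analysed, so a density particular to these loci is not shown.

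**Figure D2:**
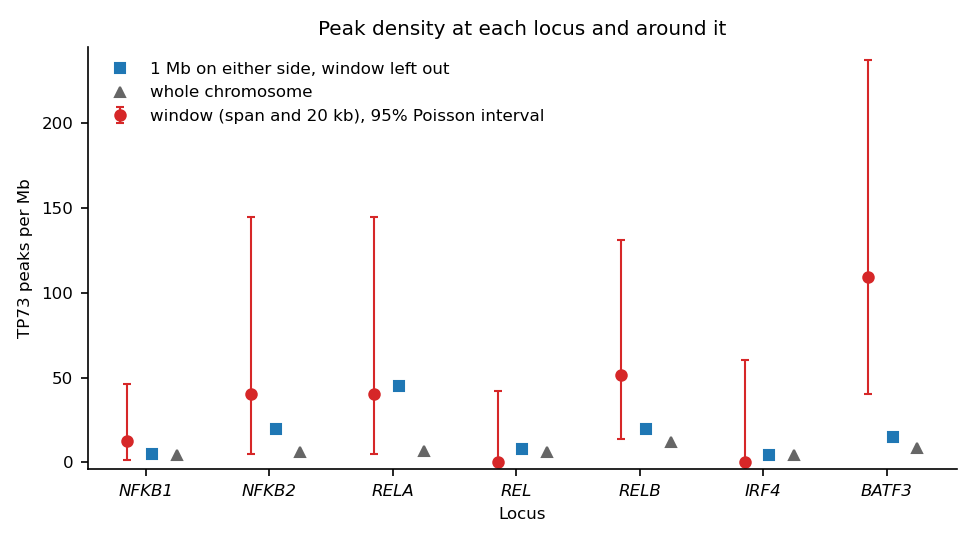
TP73 peaks per Mb (vertical axis) at each locus. Red points are the windows with exact 95% Poisson intervals, blue squares the 1 Mb on either side with the window left out, and grey triangles the whole chromosome. The window of BATF3, at 109.1, has an interval wholly above both comparison values, and at RELA the surroundings, at 44.9, are as dense as the window.

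The surroundings of some loci were dense as well. Within 1 Mb on either side, the window left out, RELA had 44.9 peaks per Mb, which would give 2.24 peaks in its window where 2 were found. NFKB2 had 19.9 per Mb around it, or 0.99 expected against 2 found, and RELB 19.4, or 1.51 against 4. Around BATF3 the density was 14.8 per Mb, or 0.81 expected against 6 found. NFKB1 stood in sparser surroundings of 5.10 per Mb, with 0.80 expected against 2. Summed over the 7 loci, 7.31 peaks would be expected from the surroundings and 3.51 from the chromosomes, against 16 found. These sums were not tested, and the surroundings and chromosomes, unlike the windows, are not placed on genes.

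By fold the members lay below the list on the shares and the median given next, and these differences were not tested. A fold of at least 10 was reached by 7 of the 16 (43.8%), against 59.8% of all 18908 peaks. A fold of at least 20 was reached by 2, at NFKB1 and RELA (12.5%), against 23.0% of all peaks. The median fold of the members was 8.87, with a range of 5.002 to 34.3, and that of the list 11.3, with quartiles of 8.31 and 18.7. A 95% interval of the members' median, taken from the ordered folds, ran from 6.51 to 13.8 and held the list median. It takes the 16 peaks as independent, although 6 of them lie in the BATF3 window, so it is no test against the list. Without the BATF3 window, a setting added after seeing the data, the members' median was 10.2. By ChIP reads the members were close to the list. Their median was 42 reads, with a range of 24 to 123, against 43 over all peaks, and 8 of the 16 (50.0%) reached the list median, as did 51.0% of all peaks. Widths were alike as well, with a median of 266 bp against 255 bp. Both shares of reads are near each other, so they say nothing particular about these loci.

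**Figure D3:**
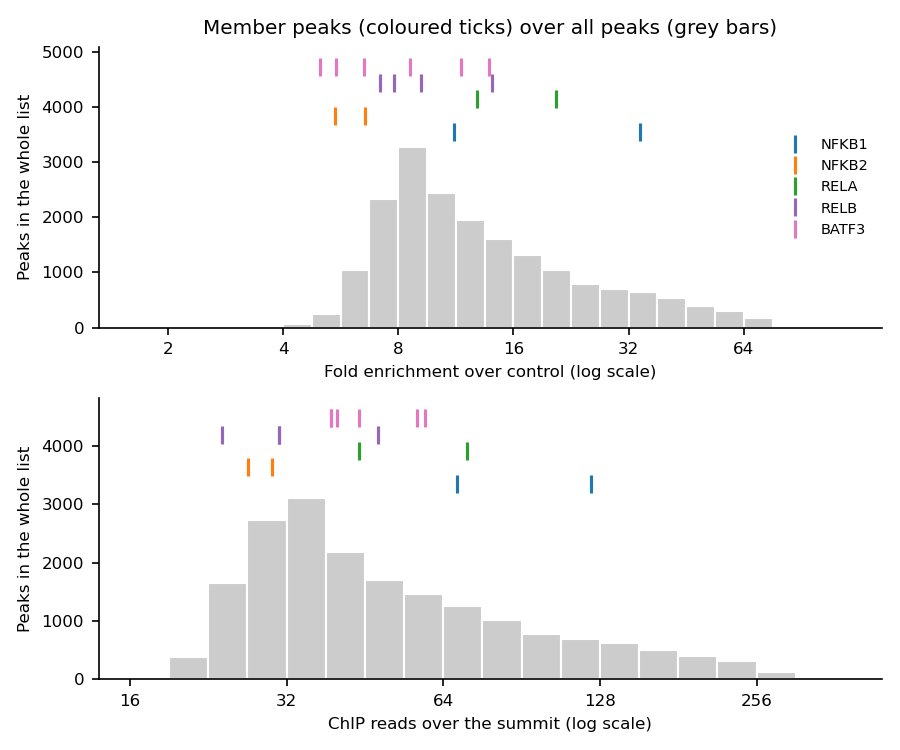
All 18908 peaks (grey bars, number of peaks on the vertical axis) by fold enrichment over the control (top) and by ChIP reads over the summit (bottom), both on log scales, with the 16 members as ticks coloured by gene and set above the bars at heights that carry no value. The BATF3 ticks reach down to a fold of 5.002 in the top panel, while in the bottom panel they lie between 39 and 59 reads, around the list median of 43.

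Fold and reads ranked the members differently. The fold is a ratio to the local control background, and where the control near a summit is sparse the caller uses a genome-wide level, here 2.41 control reads per fragment length. That level applied at 5 of the 16 members (31.2%), against 51.9% of all peaks, and those 5 were at RELA and RELB. At the other 11 the background was higher. The 6 BATF3 peaks had backgrounds of 1.29 to 2.91 times the genome-wide level. Within 1 Mb of BATF3 none of the 35 peaks was at that level, with a median of 1.66 times. Over the whole of chromosome 1, 34.3% of 2062 peaks were at the level, with a median of 1.19 times. On the chromosomes of the other members the share was between 47.3% and 72.5%. At NFKB2 the backgrounds were 1.66 and 1.505 times the level, although 41.5% of the 41 peaks in and around that locus were at the level itself. At the gene starts of NFKB1 and BATF3 they were 2.08 and 2.91 times, each set by control reads within a single fragment length. As an alternative added after seeing the data, every fold was taken over the genome-wide level instead. The median of the members was then 12.3 and that of all peaks 12.6. Such a fold only rescales the ChIP reads, so these medians restate those of the reads, 42 and 43. A fold of at least 20 was then still reached by 2 of the 16 members (12.5%), against 27.2% of all peaks. The BATF3 start then had a fold of 11.7 in place of 5.002, and the NFKB1 start 19.8 in place of 11.2.

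**Figure D4:**
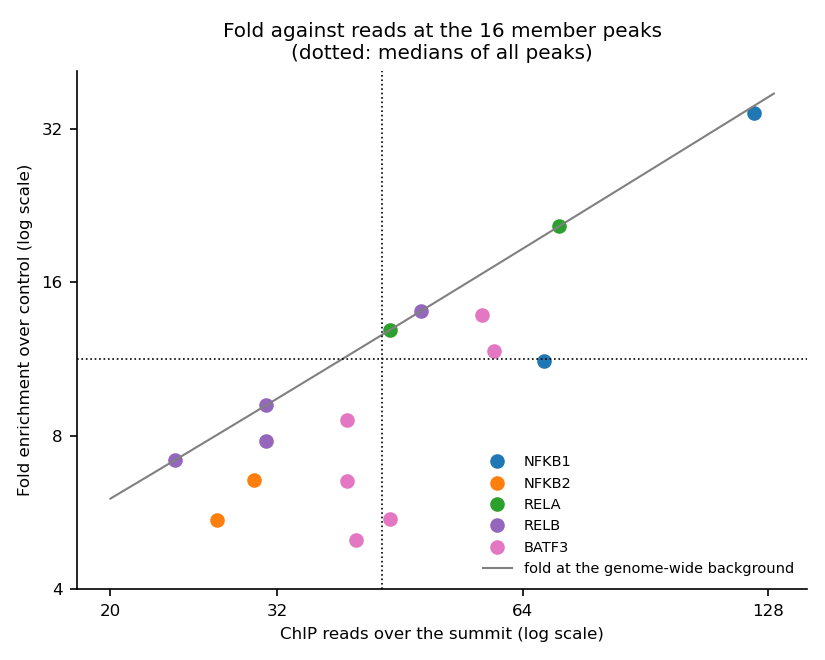
Fold enrichment over the control (vertical axis) against ChIP reads over the summit (horizontal axis) at the 16 member peaks, both on log scales and coloured by gene. The grey line is the fold that a number of reads gives over the genome-wide background, and dotted lines are the medians of all peaks, 11.3 and 43. Points of RELA and 3 of the 4 RELB points lie on the line, and all BATF3 points lie below it.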

How the data were processed

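Formaldehyde-fixed TL-Om1 chromatin gave 1 TP73 ChIP and 1 input library, sequenced as single-end reads of 50 bases per the labels. The submitters' processing notes name Bowtie2, SAMtools, MACS2 and hg19; their parameters and the handling of duplicates are not given here. The deposited list gives for each peak a fold enrichment (a ratio over the control), the −log10 of its p-value and q-value, and a score, all the authors' values; the deposited score was not used.

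Summits (peak start plus offset) were matched to the gene spans; the members, lists and motifs were chosen with earlier results of these data known. All 7 loci and all their peaks are named. ChIP reads and control background were solved from fold and p-value by the caller's formulas, (pileup + 1) / (background + 1) and a Poisson tail. All 18908 peaks had a solution, with whole reads at 100% of them within 0.02 reads; 101 had more than 1 solution, and the wholest was kept. Tested on 1980 simulated peaks made with the same formulas, it returned the reads of 100%. The simulated backgrounds were the genome-wide level or whole numbers. Fractional backgrounds from wider control windows, as at the intragenic NFKB1 peak, were not simulated. Chromosome densities use the span from first to last summit. The promoter table gave strands, except for RELB and BATF3, where they are general knowledge; the kappaB search was added to the plan. Software was numpy 2.4.6, scipy 1.17.1, pandas 2.3.3 and matplotlib 3.10.9 under Python 3.11.15. The planned count over 28 other pathway genes was not run, as it needs an hg19 annotation. Alternatives varied the window, the peak limits, the overlap rule and merging.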

Additional observations from a re-analysis of the deposited data

How the results depend on the processing

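The number of loci with a peak stayed at 5 in most settings and lay between 4 and 6 in the rest. Leaving out the BATF3 window gave 4 by construction, since it removes a locus with peaks. The 16 peaks became 9 with only the gene spans, 25 with 50 kb and 45 with 100 kb on either side, 9 at a −log10 q-value of at least 20, 7 at a fold of at least 10, and 10 without the BATF3 window, a setting added after seeing the data. The density of 29.7 per Mb fell to 16.7 at that q-value and 13.0 at that fold, and the autosomal density of 6.65 fell to 4.78 and 3.97. The q-value limit kept 56.2% of the members and 71.9% of all peaks, the fold limit 43.8% and 59.8%. No member fell below a −log10 q-value of 10, and counting by any overlap of at least 1 base gave 16. IRF4 had no peak in any setting and REL had 1 at 100 kb. NFKB2 had no peak at a fold of at least 10 or a −log10 q-value of at least 20. The 6 peaks of BATF3 became 3 at that q-value. At that fold BATF3 had 2, as did NFKB1 and RELA. Inside the gene span it had 2, as did NFKB1, NFKB2 and RELB. With 100 kb on either side it had 10, fewer than the 14 at RELA and 13 at RELB. The median fold of the members, 8.87, lay between 8.87 and 12.3 in the 6 alternatives run. The 12.3 is the fold over the genome-wide background, for which the list median was 12.6. No median was taken for the gene spans alone or for 100 kb. Whether it stays below the list median of 11.3 in those windows was not tested. Leaving out a replicate was impossible with 1 per group. No paired analysis was possible because each group has a single library. The weakest member rests on 24 ChIP reads.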

Other observations

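The wider surroundings of the loci differed in how many peaks they held. Within 500 kb on either side of the span there were 48 summits at RELA, 31 at NFKB2, 28 at RELB and 26 at BATF3, against 8 at NFKB1, 6 at REL and 5 at IRF4. The 5 at IRF4 rest on a shorter stretch, since the gene lies near the end of chromosome 6. The stronger peaks around BATF3 lay outside its window. Beyond its 3′ end, chr1:212769653-212770159 stood 89.1 kb away with a fold of 50.7 and 263 reads, and chr1:212675965-212676652 stood 182.7 kb away with a fold of 57.9 and 269 reads, against at most 59 reads within the window. The second protein-coding gene on that side in the RefSeq order is ATF3, an AP-1 factor induced by stress; no hg19 annotation was used to place these peaks against it.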
